A study of Mus musculus with 6 samples.

Results

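The mSin3A islands described here lie in the Hist1 cluster, the largest cluster of replication-dependent histone genes in the mouse genome. They are all islands, in 4 deposited lists, that overlap chr13:21780000-22140000 (window 1) or chr13:23490000-23870000 (window 2) of the mouse build mm9 by at least 1 bp. In all, 185 of 54058 islands met this rule: 40 of 13397 in wild-type (WT) condition 1, 44 of 11151 in WT condition 2, 52 of 15954 in Tcf1/Lef1-deficient condition 1 and 49 of 13556 in Tcf1/Lef1-deficient condition 2. The libraries were made by chromatin immunoprecipitation and sequencing (ChIP-seq) with an antibody to mSin3A from sorted splenic T cells that were CD8+ and had high surface TCRbeta. The cells came either from WT mice or from Tcf1-/-Lef1-/- mice, in which CD4-Cre had removed both transcription factors. Because CD4-Cre acts while T cells develop in the thymus, these cells matured without the factors. How the conditions differ is not stated in the labels, nor how many animals were pooled or what alleles the control mice carried. Each combination of genotype and condition is 1 library, so no difference below has a replicate check, and intervals cover counting error only. The 2 input libraries were not analysed here, and the background under the islands is unknown.

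Replication-dependent histone genes encode the core histones H2A, H2B, H3 and H4, which form the nucleosome, and the linker histone H1, which binds the DNA between nucleosomes. They are short genes without introns, lie in clusters, and are transcribed chiefly while DNA is copied in S phase. Mature resting T cells divide rarely. mSin3A is the scaffold of a co-repressor complex that carries histone deacetylases, enzymes that remove acetyl groups from histone tails.

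The histone genes of chromosome 13 were taken in RefSeq order (assembly GRCm38.p6). They were split into groups where Vmn1r or Slc17a genes, or a long run of genes, lay between neighbours. The 2 largest groups are described here. A further group held 2 coding genes, H2bc1 and H2ac1, and the last a single pseudogene. The first group ran from H2bc13 to H2bc11 and held 23 protein-coding histone genes: 1 for H1, 7 for H2A, 8 for H2B, 2 for H3 and 5 for H4. Within it lay 31 tRNA genes and 3 other coding genes, Zfp184, Pom121l2 and Prss16. The second group ran from H4c8 to H1f1 and held 29 coding histone genes: 5 for H1, 5 for H2A, 6 for H2B, 7 for H3 and 6 for H4, with Hfe, a regulator of iron uptake, among them. Between these 2 groups RefSeq lists 147 genes, 75 of them Vmn1r vomeronasal receptor genes and 46 of them tRNA genes. The islands are on mm9 and the gene tables on another build, so no island was assigned to a gene, and the labelled cell type was not checked at its marker genes.

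Histone promoters carry a small set of short motifs, and examples by class are shown. How many of these motifs lie in the 2 windows was not counted. RefSeq promoters on GRCm38.p6 ran from 250 bases before to 50 bases after the start. They were found for 49 of the 52 coding histone genes of the 2 largest groups, as 50 promoters. The gene printed for H2A, H3, H4 and H1 is the first of its class along the chromosome. Capitals mark the TATA box (TATAAA), the CCAAT box (CCAAT) and the H1 box (AAACACA), or their reverse complements, searched with the octamer (ATTTGCAT) on both strands; none of these motifs contains another.
H2ac13 (H2A), chr13:21716162-21716461, + strand: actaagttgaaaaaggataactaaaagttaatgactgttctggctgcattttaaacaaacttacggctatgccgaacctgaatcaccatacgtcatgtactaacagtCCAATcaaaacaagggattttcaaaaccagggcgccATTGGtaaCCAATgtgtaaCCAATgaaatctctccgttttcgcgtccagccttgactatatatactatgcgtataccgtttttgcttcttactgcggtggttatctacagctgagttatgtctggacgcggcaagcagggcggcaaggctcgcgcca
H3c10 (H3), chr13:21717378-21717677, + strand: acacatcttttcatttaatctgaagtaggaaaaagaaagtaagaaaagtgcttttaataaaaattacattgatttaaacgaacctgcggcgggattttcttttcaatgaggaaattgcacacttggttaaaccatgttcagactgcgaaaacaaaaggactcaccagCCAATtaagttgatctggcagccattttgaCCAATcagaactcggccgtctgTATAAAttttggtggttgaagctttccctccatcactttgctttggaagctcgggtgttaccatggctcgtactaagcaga
H4c11 (H4), chr13:21734784-21735083, + strand: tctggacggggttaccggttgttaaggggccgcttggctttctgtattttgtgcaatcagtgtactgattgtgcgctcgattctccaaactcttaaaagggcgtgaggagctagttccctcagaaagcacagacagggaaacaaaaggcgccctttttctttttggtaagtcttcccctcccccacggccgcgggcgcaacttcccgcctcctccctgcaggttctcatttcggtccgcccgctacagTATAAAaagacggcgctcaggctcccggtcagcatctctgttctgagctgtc
H1f5 (H1), chr13:21780576-21780875, - strand: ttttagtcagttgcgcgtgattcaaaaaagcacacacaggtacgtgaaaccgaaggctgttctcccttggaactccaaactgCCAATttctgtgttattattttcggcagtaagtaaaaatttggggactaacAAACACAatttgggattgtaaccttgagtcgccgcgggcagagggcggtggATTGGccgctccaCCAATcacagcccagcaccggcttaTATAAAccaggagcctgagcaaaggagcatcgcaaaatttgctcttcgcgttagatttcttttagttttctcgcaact
H2ac13 and its neighbour H2bc13, an H2B gene, point away from each other, and their promoters share 272 bases, so the first sequence serves both genes. CCAAT stood in 42 of the 50 histone promoters (84.0%) against 37.4% of 32851 promoters of all genes. It was in every promoter of the H1, H2A, H2B and H3 genes (6, 12, 14 and 7 promoters) and in 3 of 11 for H4. Counts are per promoter, so a match in bases that H2ac13 and H2bc13 share counts under both classes. Other H2A and H2B genes are neighbours too, and how far their promoters overlap was not measured. TATAAA stood in 29 of 50 (58.0%) against 13.6% of all promoters. ATTTGCAT, the octamer known from H2B genes, was in 5 of 14 H2B and 4 of 12 H2A promoters and in 1.74% of all promoters. AAACACA was in 5 of 6 H1 promoters against 7.18% of all promoters. These matches describe sequence and were not set against the islands.

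mSin3A islands were crowded in both windows and sparse between them. Islands covered 21.4% and 17.8% of the 360 kb of window 1 in WT conditions 1 and 2, and 18.3% and 21.0% in deficient conditions 1 and 2. In the 380 kb of window 2 they covered 17.2% and 25.1% in the WT lists and 18.5% and 22.5% in the deficient lists. The libraries of the genotypes interleaved in both windows. In the 1350 kb between the windows, coverage was 0.193% and 0.444% in WT and 0.459% and 0.178% in deficient cells, from 1 or 2 islands in each library. Of these 6 islands, 3 belong to a region at the very edge of window 1, 22139601-22144799, and the WT condition 2 island of that region is also a member. Windows of the same length were laid along all chromosomes for comparison, 7124 of 360 kb and 6748 of 380 kb. Their mean coverage was between 2.38% and 2.55%, and their median was at most 0.368%. Between 97.0% and 99.2% of them were less covered than the Hist1 window of the same length in the same library. The stretch between was ordinary by this measure: of 1892 windows of 1350 kb, 28.2% to 40.4% were less covered, and their median was between 0.837% and 1.02%.

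By number of islands the Hist1 windows stood further out than by length. Window 1 held 21 and 18 islands in WT and 24 and 21 in the deficient lists, and between 1 and 5 of the 7124 comparison windows held as many. Window 2 held 19 and 26 islands in WT and 28 and 28 in the deficient lists. In WT condition 1, 6 of 6748 comparison windows reached that number; in the other libraries 0 did. No test was made of these ranks, which describe 1 library each.

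**Figure D1:**
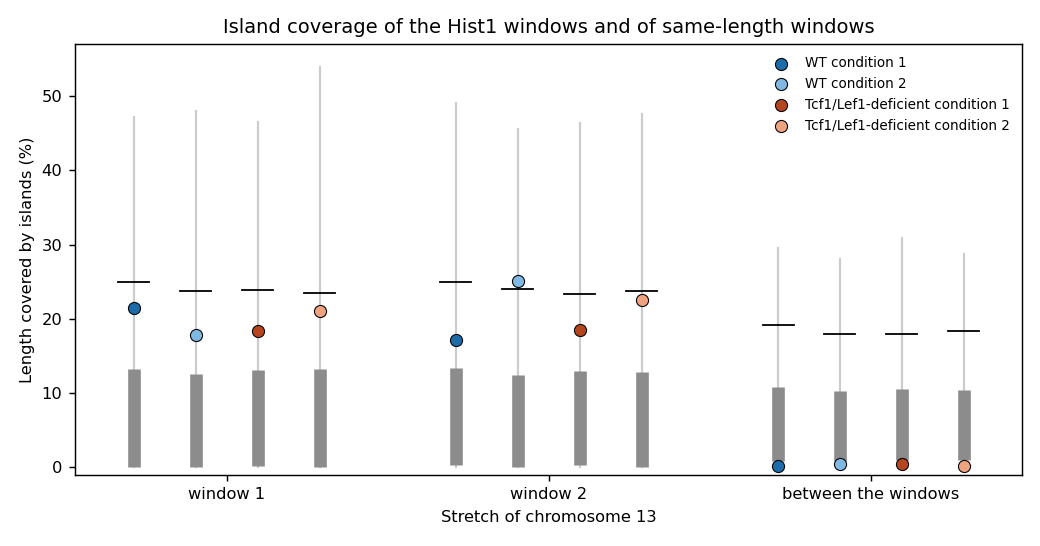
Length covered by mSin3A islands, in percent, for window 1, window 2 and the stretch between them, with 1 point per library. Dark bars run from the median to the 95th percentile of all windows of the same length, the short line is the 99th percentile and the pale line spans the lowest to the highest; the Hist1 points lie between 17.2% and 25.1%, the points between the windows below 0.5%.

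Hist1 islands held many reads for their width, and against all islands of their lists they were narrow. Their median width was 3099 bp in both WT libraries, 1999 bp in deficient condition 1 and 2999 bp in deficient condition 2, against 3599, 4199, 3199 and 3799 bp over all islands of the same libraries. The median read density was 32.3 and 30.0 reads per kb in the WT lists and 36.5 and 35.0 in the deficient lists. Over all islands it was 26.5, 28.2, 27.2 and 28.1 reads per kb, in the same order. The median Hist1 island stood at percentiles 69.6 and 57.5 of its own list by density in WT and at percentiles 77.3 and 73.2 in the deficient lists. By total reads it stood below the middle of each list, between percentiles 33.6 and 46.5. Among islands of chromosome 13 alone the median width was at percentiles 51.9 and 39.5 in the WT lists and 28.9 and 40.4 in the deficient lists, so in WT condition 1 Hist1 islands were not narrow for their chromosome. By total reads the percentiles there were 57.9 and 39.8 (WT) and 48.6 and 46.8 (deficient). By density they were 66.1 and 53.9 (WT) and 73.7 and 69.0 (deficient), nearest the middle in WT condition 2. The widest Hist1 island spanned 13399 bp, and the widest of any list 85799 bp.

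Island positions along the windows were shared among the 4 libraries more often than over the genome, although many regions were not called in all 4. Merging islands that overlapped or abutted, across lists, gave 58 regions with at least 1 Hist1 island, 27 in window 1 and 31 in window 2, of 23510 in the genome. The call pattern of the edge region named above counts its 2 islands just outside window 1. All 4 libraries called 26 of the 58 (44.8%), 13 in each window, against 24.0% of all merged regions. A further 12 (20.7%) were called in 3 libraries and 14 (24.1%) in 2. A single library called 6 (10.3%), against 48.1% of all regions. The gap was smaller among islands with many reads. Among the upper 50% of each list by reads, 43.5% of Hist1 regions and 36.0% of all regions were called in all 4, and 26.1% and 29.0% in a single library. Each list covered 17.2% to 25.1% of a Hist1 window, against a mean of 2.38% to 2.55% for windows of that length, and the part of this coverage in the shares was not tested.

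**Figure D2:**
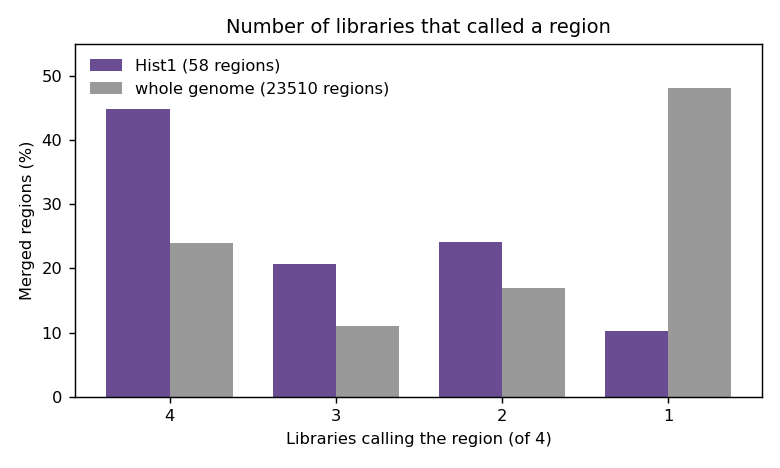
Share of merged regions, in percent, called in 4, 3, 2 or 1 of the 4 libraries, for the 58 Hist1 regions and for all 23510 regions of the genome. Regions called in every library make up 44.8% of the Hist1 set, and regions of a single library 10.3%.

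By bases, too, calls in all 4 libraries were more frequent than over the genome, although single-library calls outnumbered them. Of the 250 kb called in any library within the windows, 25.9% was called in all 4 and 31.2% in a single library, against 16.4% and 50.3% over the genome. Shared bases, as a percentage of the bases called in either library of a pair, were 43.3% for the 2 WT libraries and 52.1% for the 2 deficient libraries. Pairs of different genotype shared 49.1% in condition 1, 51.8% in condition 2, and 48.7% in both pairs that crossed conditions. Over both windows together, each WT library thus shared more with either deficient library than with the other WT library. In window 2 alone the WT pair shared 46.3%, next to 46.2% for the condition 2 pair. Over the genome the same pairs, in the order given, shared 36.5%, 44.1%, 34.6%, 35.6%, 35.3% and 35.3%.

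**Figure D3:**
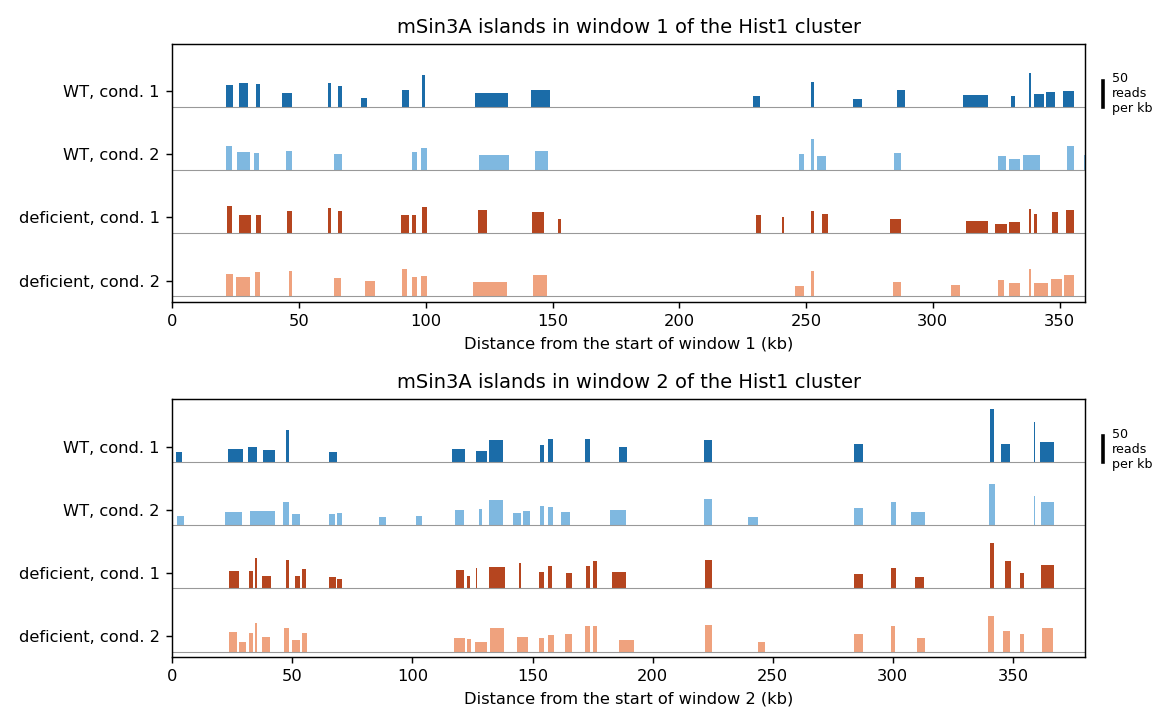
Map of the 185 Hist1 islands in each library, with distance from the start of each window in kb along the horizontal axis. Each block spans 1 island, its height is the island's reads per kb (scale bar, 50 reads per kb), and many islands fall at matching places in the 4 tracks, with an empty stretch of 75.6 kb in window 1.

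In window 1 the islands formed a left and a right group. The left group ran from 21801201 to 21933399 and the right group from 22009001 onward, with no island of any library in the 75.6 kb between them, the longest uncalled stretch inside either window. The left group opened with 3 close regions called in every library, at 21801201-21803799, 21805001-21810999 and 21812201-21815199. The first of these held 107 and 93 reads in the WT lists and 103 and 103 reads in the deficient lists. The second held 171 and 186 reads in the WT lists and 168 and 216 in the deficient lists. The third held 80 and 73 reads in the WT lists and 77 and 94 in the deficient lists. These are unscaled counts; after the scaling described below, the ratios of deficient to WT were 1.00, 1.03 and 1.00 in condition 1 and 1.17, 1.23 and 1.37 in condition 2.

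The strongest region of window 1, at 21898601-21912799, was uneven. It held 341 and 334 reads in WT, 152 in deficient condition 1 and 364 in deficient condition 2. The called length was 12999 and 11799 bp in WT, 3399 bp in deficient condition 1 and 13399 bp in deficient condition 2, so that the library with few reads was also the one with a short island. Per kb that library was the highest, at 44.7 reads per kb against 26.2 to 28.3 in the other 3. Its neighbour at 21921401-21928999 was steadier, with 240 and 201 reads in the WT lists and 195 and 236 reads in the deficient lists. In the right group, 22115601-22130799 held 252 and 189 reads in the WT lists and 177 and 327 reads in the deficient lists. It was listed as 3 islands in each library other than WT condition 2, where it was 1 island. The adjacent 22131201-22135599 held 131 and 130 reads in the WT lists and 135 and 153 in the deficient lists.

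Window 1 also held a region that was listed in both genotypes in condition 1 and in neither in condition 2. At 22092001-22101799, WT condition 1 had an island of 9599 bp with 211 reads and deficient condition 1 an island of 8799 bp with 202 reads. Regions called in both condition 1 libraries only numbered 3 of 58 (5.17%), against 1.87% of all regions, and those called in both condition 2 libraries only numbered 2 of 58 (3.45%), against 0.749%.

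Window 2 held the densest islands of the cluster. At 23829801-23832599 the density was 101 and 79.6 reads per kb in the WT lists and 86.2 and 67.1 in the deficient lists, which placed these islands at percentiles 99.8 and 99.5 (WT) and 99.6 and 98.5 (deficient) of their lists. The reads numbered 162 and 191 in the WT lists and 155 and 161 in the deficient lists, and the genotypes differed little. At 23851401-23857199 the 4 libraries were close, with 228 and 237 reads in the WT lists and 235 and 215 in the deficient lists. At 23622001-23628399 they held 251 and 282 reads in the WT lists and 263 and 274 in the deficient lists, the most reads of any region of window 2 in the deficient lists. The region at 23711201-23714799 was the most even of those named, with 147 and 159 reads in the WT lists and 152 and 151 reads in the deficient lists. It stood alone, with uncalled stretches of 29.0 kb before and 14.8 kb after it.

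Near the start of window 2, the region 23521601-23532799 changed its make-up more than its reads. WT condition 1 listed 2 islands there, WT condition 2 a single island of 10399 bp, and both deficient libraries 3 islands with 6197 bp in all. The reads numbered 231 and 291 in the WT lists and 198 and 212 in the deficient lists, lower in deficient cells in both conditions. After the scaling described below, the ratio was 0.894 (95% interval 0.736 to 1.09) in condition 1 and 0.773 (0.644 to 0.926) in condition 2. Per kb of called length it went the other way, at 1.24 and 1.23. The region just before it, 23512001-23520599, held 157 and 183 reads in the WT lists and 129 and 171 in the deficient lists.

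Some island edges coincided to within a single 200 bp step, the grid on which all islands begin. For the 23 Hist1 regions with 1 island in each library, the start positions of the 4 islands spanned a median of 800 bp and the end positions 600 bp, against 1600 bp for each over 4079 such regions in the genome. At least 1 edge agreed within 200 bp in all 4 libraries in 9 of 23 regions (39.1%), against 16.3%. The region 22032001-22033199 had the same start and end in every list, with 58 and 72 reads in the WT lists and 51 and 57 reads in the deficient lists. The ends at 21827399, 22135599, 23538799 and 23644799 and the start at 23646601 were also the same in all 4. This measure was chosen after the data were seen. Hist1 islands are narrower than others, and the part of width in it was not tested.

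The question of the study was how loss of Tcf1 and Lef1 alters where mSin3A is found. Taken as a whole, the Hist1 windows differed little between the genotypes, and not in the same direction in the 2 conditions. Hist1 islands held 4506 reads, or 0.243% (Clopper-Pearson 95% interval 0.236 to 0.250), of all island reads in WT condition 1 and 4842, or 0.255% (0.247 to 0.262), in deficient condition 1. In condition 2 they held 5157, or 0.288% (0.280 to 0.296), in the WT list and 5327, or 0.278% (0.270 to 0.285), in the deficient list. The ratio of these shares, deficient over WT, was 1.05 (1.01 to 1.09) in condition 1 and 0.966 (0.930 to 1.00) in condition 2. Among the upper 50% of each list by reads it was 0.913 and 0.926, so the direction in condition 1 turned with the choice of islands. Condition 2 over condition 1 was 1.19 (1.14 to 1.23) in WT and 1.09 (1.05 to 1.13) in deficient cells, and 1.05 and 1.07 among the upper 50%.

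Given separately, the windows differed. In window 1 the ratio of shares, deficient over WT, was 0.956 (0.901 to 1.01) in condition 1 and 1.07 (1.01 to 1.13) in condition 2. In window 2 it was 1.15 (1.08 to 1.21) and then 0.893 (0.848 to 0.940). In condition 1 the windows lay closer together under some other choices of islands, with window 2 still the higher. With the upper 50% of each list the ratio was 0.893 in window 1 and 0.930 in window 2. With lists shortened to the same length it was 0.935 and 1.01. In window 2 the ratio was then below 1 or close to it. In window 2 the 2 WT libraries lay at opposite ends. WT condition 1 held 2217 reads in 19 islands, or 0.119% of its island reads, and WT condition 2 held 2992, or 0.167%. The deficient libraries lay between, with 2603 reads (0.137%) in condition 1 and 2857 (0.149%) in condition 2. The ratio of the 2 WT libraries there was 1.40 (1.32 to 1.48), larger than either ratio between genotypes. With the upper 50% of each list it was 1.23. Deficient over WT in condition 2 was then 0.806, about as far from 1. WT condition 1 also listed fewer of the Hist1 regions that all other libraries shared, 26 of 33 (78.8%), against 87.2% over the genome. WT condition 2 listed 26 of 29 (89.7%, against 83.1%, the lowest share over the genome), deficient condition 1 26 of 26 (against 96.3%) and deficient condition 2 26 of 28 (92.9%, against 93.7%). Of the 7 regions that WT condition 1 alone lacked, 5 lay in window 2.

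For single regions, reads were compared as the ratio of deficient to WT, scaled so that the median of the 5637 regions called in all 4 libraries was 1 in each condition. Over the 26 Hist1 regions in that set, the median log2 ratio was 0.00 in condition 1 and 0.01 in condition 2, and its standard deviation over regions was 0.61 and 0.40. The same standard deviation between conditions was 0.50 in the WT lists and 0.53 in the deficient lists, which lies within the range of the genotype comparisons. Deficient libraries held at least 2-fold more reads in 2 of 26 regions in condition 1, where 2.80% of all regions passed, and in 1 of 26 in condition 2, where 2.73% passed. At least 2-fold fewer were found in 2 of 26 in condition 1 (2.77% of all regions) and in 0 of 26 in condition 2 (3.23%). Of the 26, 8 were higher in deficient cells in both conditions, 7 were lower in both and 11 changed side; over the genome the numbers were 1517, 1517 and 2603 of 5637. The 8 became 2 when reads were scaled by total island reads or not scaled at all. No Hist1 region passed 2-fold in both conditions in either direction; over the genome 0.319% did so upward and 0.408% downward. With reads taken per kb of called length, no Hist1 region passed 2-fold in either condition. Few did so over the genome: of 5637 regions, 73 passed upward and 55 downward in condition 1, and 77 and 64 in condition 2. With so few, 0 of 26 does not set the Hist1 regions apart.

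**Figure D4:**
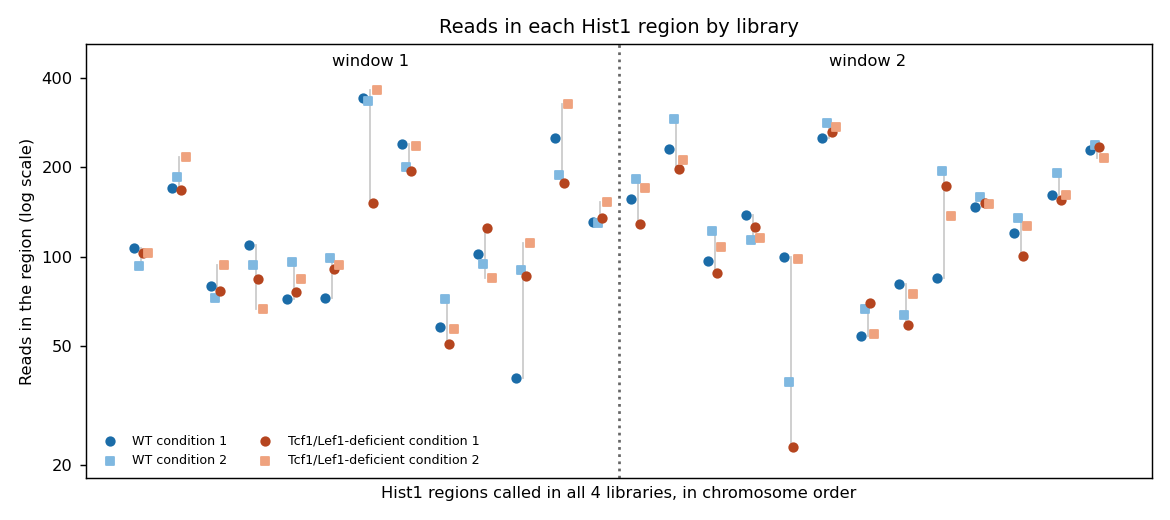
Reads in each of the 26 Hist1 regions called in all 4 libraries, in chromosome order, on a log scale, with 1 point per library and a line from the lowest to the highest. Most regions keep their 4 points close together; the region with 23 reads in deficient condition 1 and 100 reads in WT condition 1 is the widest.

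Most of the larger ratios did not recur in the other condition. At 23616001-23621199, WT held 100 and 38 reads and deficient cells 23 and 98 reads, so that the ratio was 0.240 (0.146 to 0.381) in condition 1 and 2.74 (1.86 to 4.09) in condition 2. The length called was 4799 and 1199 bp in WT and 599 and 5199 bp in deficient cells. At 23672201-23682199, WT held 85 and 194 reads and deficient cells 173 and 137, and the ratio was 2.12 (1.63 to 2.79) and then 0.749 (0.598 to 0.937). At 22110001-22114399 the low library was WT condition 1, with 39 reads against 90, 86 and 111 in WT condition 2 and the deficient libraries, and the ratio was 2.30 (1.56 to 3.45) and 1.31 (0.982 to 1.75). With islands within 2 kb merged this region was pooled with neighbours, among them 22115601-22130799 and 22131201-22135599. The pooled ratio was 1.19 in condition 1. In all, 3 of 26 regions (11.5%) had an interval above 1 in one condition and below 1 in the other, against 8.76% of the 5637 regions. The strongest region of window 1, described above, gave 0.465 (0.382 to 0.565) and 1.16 (0.994 to 1.35). Besides 23521601-23532799, described above, 21823201-21827399 was lower in deficient cells in both conditions, at 0.797 (0.593 to 1.07) and 0.756 (0.544 to 1.05), from 110 and 94 reads in the WT lists and 84 and 67 in the deficient lists. Both of its intervals include 1, and per kb of called length the direction turned, to 1.60 and 1.33.

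Regions that separated the genotypes were about as frequent as in the genome. After scaling, both deficient libraries exceeded both WT libraries in 6 of 26 Hist1 regions (23.1%), against 19.1% of all regions, and both lay below both WT libraries in 3 of 26 (11.5%), against 19.8%. By calls, the shares were likewise not far from those of the genome. Both deficient libraries and neither WT library called 4 of the 58 Hist1 regions (6.90%), against 8.98% of all regions. These were 23544001-23546199 with 66 and 72 reads in conditions 1 and 2, 23612801-23614399 with 28 and 38, 23665201-23666799 with 84 and 77, and 23843001-23844799 with 53 and 60. All 4 lay in window 2. Both WT libraries and neither deficient library called 2 of 58 (3.45%), against 2.91%. These were 23491401-23494799 with 51 and 56 reads and 23848601-23849399 with 46 and 45 reads. The last was a short, dense island of 76.8 and 56.3 reads per kb. In 3 of 58 regions (5.17%, against 2.48% of all) the genotype that was listed switched between the conditions. A region that is not listed has an unknown number of reads in that library, so no fold is given.

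**Figure D5:**
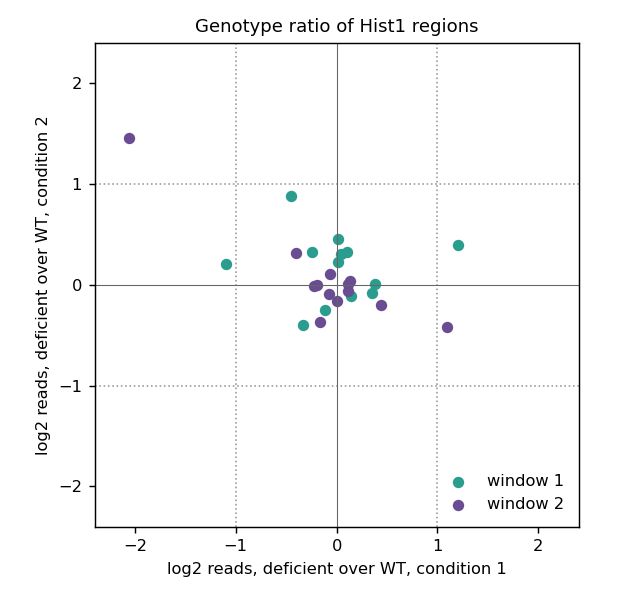
Log2 ratio of reads, deficient over WT, in condition 1 (horizontal) and condition 2 (vertical) for the 26 Hist1 regions called in all 4 libraries, coloured by window, with dotted lines at 2-fold. No point lies beyond 2-fold on the same side in both conditions, and the point at the upper left, at -2.06 and 1.45, is the region 23616001-23621199.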

How the data were processed

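For every ChIP library the authors deposited a list of islands, stretches enriched in reads. The submitters' processing notes name FastQC, Bowtie2 2.2.5, SICER 1.1 and the build mm9, without roles; the layout of the lists is that of SICER islands. Settings, the use of inputs, and the handling of duplicate reads or of reads from near-identical histone or tRNA gene copies are not stated in the sources used here, and their part in the results was not tested. The last column of each deposited list was taken to be the ChIP read count of an island, from the layout and the values. It is not scaled for depth. Total depth is unknown; island reads summed to 1792952 to 1917097 per list, and intervals cover counting error only.

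Starts are deposited starts plus 1, ends are as deposited, and widths are their difference on the deposited scale. Overlapping or abutting islands of the 4 lists were merged. Ratios were fitted over all merged regions called in all 4 libraries and centred on their median (log2 -0.06 in condition 1 and -0.09 in condition 2), with 95% intervals from the binomial distribution of the paired counts; condition 2 over 1 was centred likewise (0.11 in WT and 0.08 in deficient cells). With 1 library per group no test was made. Comparison windows ran from the first to the last island of each chromosome, windows without islands and those over Hist1 included. Regions named are the 6 with most reads in each window and the 4 highest and 4 lowest mean ratios; others were chosen after their values were seen. The windows, lists and rules were chosen with earlier results of these data known. Functions were tested on simulated data. Python 3.11.15, numpy 2.4.6, pandas 2.3.3, scipy 1.17.1 and matplotlib 3.10.9 were used.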

Additional observations from a re-analysis of the deposited data

Results flagged for a closer look

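In 3 of the 26 Hist1 regions called in all 4 libraries the genotypes differed in opposite directions in the 2 conditions, each with a counting interval that excluded 1, against 8.76% of the 5637 such regions of the genome. The difference between the conditions was not tested. Deficient over WT, the ratio came to 0.240 (condition 1) and 2.74 (condition 2) at 23616001-23621199, 2.12 and 0.749 at 23672201-23682199, and 0.733 and 1.84 at 22115601-22130799. Called lengths moved with the reads: per kb of called length the same regions gave 1.83 and 0.597, 1.09 and 0.780, and 1.34 and 1.06. With islands within 2 kb merged, the first was pooled with neighbours, 23622001-23628399 among them, and the pooled region gave 0.933 and 1.28. The second gave 2.11 and 0.744. The last was pooled with neighbours, among them 22110001-22114399 and 22131201-22135599. That pooled region gave 1.19 and 1.43, on the same side in both conditions. In 3 further regions of 58 (5.17%, against 2.48% of all regions) the call itself switched, which was not tested either. At 21854601-21859799 the island was listed for WT in condition 1, with 39 reads, and for deficient cells in condition 2, with 105 reads. At 22034201-22038599 it was listed for deficient cells in condition 1, with 80 reads, and for WT in condition 2, with 94 reads. At 23558801-23560599 it was listed for deficient cells in condition 1, with 31 reads, and for WT in condition 2, with 41 reads.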

How the results depend on the processing

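No paired analysis was possible because each group holds 1 library and the condition is not a replicate number; for the same reason no replicate could be left out. Coverage ranks with shifted windows, density percentiles within chromosome 13, and the absence of a region past 2-fold in both conditions under other scalings, per kb and with wider merging stayed close to the values given. With lists shortened to 11151 islands, the ratio of read shares was 0.972 for deficient over WT in condition 1 and 1.14 for condition 2 over 1 in deficient cells. With the upper 50% of each list by reads, deficient over WT was 0.913 and 0.926, and condition 2 over 1 in WT was 1.05. That choice also lowered the covered share of the windows to 12.1% and 11.2% in WT and 9.38% and 10.8% in deficient cells. It left 23 regions, of which 10 were called in all 4 libraries, 0 in deficient cells only and 1 in WT only. Merging within 2 kb left 38 regions, with 1 deficient-only and 1 WT-only. Shortened lists gave 2 deficient-only and 3 WT-only regions, against 4 and 2 in the full lists. Under these choices the shares of all regions with these patterns were not computed. Regions higher in deficient cells in both conditions numbered 8, but 2 with scaling by total island reads, 2 with no scaling and 4 with merging within 2 kb. Per kb of called length, 0 Hist1 regions passed 2-fold in condition 1 and 0 in condition 2, and few regions of the genome passed either. In condition 1, ratios past 2-fold turned to 1.70 at 21898601-21912799 and 0.940 at 22110001-22114399. At 23616001-23621199 they turned to 1.83 and 0.597 in conditions 1 and 2. The cause was not tested. Leaving out each library in turn, chosen after seeing the data, left between 46.4% and 56.9% of Hist1 regions called in all remaining libraries, against 27.7% to 32.1% of all regions.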

Other observations

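Of the 6 islands between the windows, 3 form the edge region of window 1, 22139601-22144799, with 81 and 105 reads in the WT lists and 112 reads in deficient condition 1. Another was an island of 54 reads in WT condition 2 alone. The rest were islands of 69 reads in deficient condition 1 and 77 reads in deficient condition 2, which overlapped. Their shared bases made up 58.3% of the deficient condition 2 island. The pooled density of the stretch was 31.2 and 24.9 reads per kb in the WT lists and 29.2 and 32.1 in the deficient lists, against 31.7, 31.7, 35.5 and 33.1 in the Hist1 windows. No base of it was called in all 4 libraries.

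The longest stretches with no island in any library measured 75.6 kb in window 1 and 36.8, 29.0 and 26.2 kb in window 2. Of the length of both windows, 33.8% was called in at least 1 library and 8.76% in all 4.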
